A study of Bos taurus with 12 samples.

Results

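Plasminogen activators, matrix proteases and their inhibitors were followed in the wall of the bovine ovarian follicle through 8 genes: PLAU, PLAT, SERPINE2, MMP9, MMP19, TIMP1, ADAMTS4 and CTSK. The members were taken by gene symbol from the annotation of the array's probe sets, and all 8 had a probe set among the 9155 genes with a probe set of 1 symbol. They were covered by 10 probe sets, 2 each for MMP19 and TIMP1 and 1 for each other gene, and the brightest stood for the gene. All 8 passed the filter on low values described below.

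RNA was measured on 12 Affymetrix bovine arrays, 2 for each of 6 groups: granulosa cells and theca cells from small (up to 5 mm), medium (5 to 10 mm) and large (over 10 mm) follicles. Granulosa cells line the inside of the follicle without blood vessels, and theca cells form the vascular layer outside its basement membrane. All groups came from untreated, non-pregnant, cycling young heifers (Bos taurus), with ovaries taken at the follicular stage and carried on ice. By the extraction protocol each RNA sample pooled cells of 20 to 40 follicles of 1 size. The series' design gives 20 to 40 ovaries of 6 to 10 animals per replicate instead. Pooling hides the spread between animals, and the p-values measure only the spread between pools. In such bulk samples fewer cells of a type and less RNA per cell cannot be told apart.

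Plasminogen activators are serine proteases that cut plasminogen to plasmin, which degrades fibrin and matrix proteins and activates other proteases. Serpins and the tissue inhibitors of metalloproteinases hold these enzymes in check. In the ovary the balance between proteases and inhibitors is known for its part in the remodelling of the follicle wall during growth and at ovulation.

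Values are array signals on a linear scale. Changes are differences of log2(signal + 16) ± the standard error of a limma model over all 12 arrays (n = 2 arrays per group). The added 16 understates the change of dim genes. A probe set was tested if its group mean passed a signal of 22.5 in at least 1 group, and counted as called where its p, adjusted by Benjamini-Hochberg over the 17236 probe sets tested, was under 0.05.

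A pair of arrays stood apart. The median signal was 48.8 on granulosa large replicate 1 and 33.7 to 39.2 on the other 11 arrays. The same array had an actin 3' over 5' ratio of 21.0 and the highest signal of the haemoglobin gene HBB, 578.5. Theca small replicate 1 had a GAPDH 3' over 5' ratio of 8.36, against 0.984 to 1.30 elsewhere, a sign of shortened RNA. Marker genes separated the layers only in part. Of 14 granulosa markers 12 were higher in granulosa over all sizes, with a summed signal of 18426 to 31262 in granulosa. In theca that sum was 4871 to 5520 in small, 6582 to 12333 in medium and 12715 to 19357 in large follicles. Thus the sum of theca large replicate 2 reached the granulosa range. INHA (7721.7), INHBA (5756.4) and CYP19A1 (4279.2) made up most of the sum on that array. KRT18 (56.7), CDH2 (408.1) and CRABP2 (369.5) lay there below every granulosa array, whose lowest signals were 801.1, 877.2 and 917.4. CYP19A1, the oestrogen-making aromatase of granulosa, gave 21.9 and 52.8 in small, 911.6 and 183.8 in medium, and 1633.2 and 4279.2 in large theca, and its highest granulosa signal was 3134.3. INHBA, an activin and inhibin subunit, gave 5756.4 on theca large replicate 2, above 5 of 6 granulosa arrays. Some other markers of the list were lower in large than in small theca. KRT18 gave 292.5 and 221.4 in small and 137.6 and 56.7 in large theca. AMH gave 129.9 and 172.0 in small and 52.5 and 81.4 in large theca. HSD17B1 gave 593.0 and 539.6 in small and 137.4 and 245.9 in large theca. From small to large theca 2 of the 14 were called higher and 0 lower. CYP17A1, the androgen-making enzyme of theca, gave 1785.8 to 5781.5 in theca and 26.5 to 227.7 in granulosa. The FSH receptor FSHR gave 53.0 to 331.8 in granulosa and 5.0 to 63.3 in theca, so that those ranges overlapped. The description field names theca for all 12 samples, and the titles were used.

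The 8 genes fell into different patterns. PLAU, MMP19, MMP9 and CTSK were called higher in large than in small granulosa, by 2.84, 2.87, 1.67 and 1.81 on the log2 scale. ADAMTS4 was called lower in granulosa than in theca at every size. PLAT and TIMP1 were called higher in granulosa only as a mean over the sizes, and SERPINE2 was called in 0 of the 11 contrasts by limma, with an unadjusted p under 0.05 in 2 of them.

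**Figure D1:**
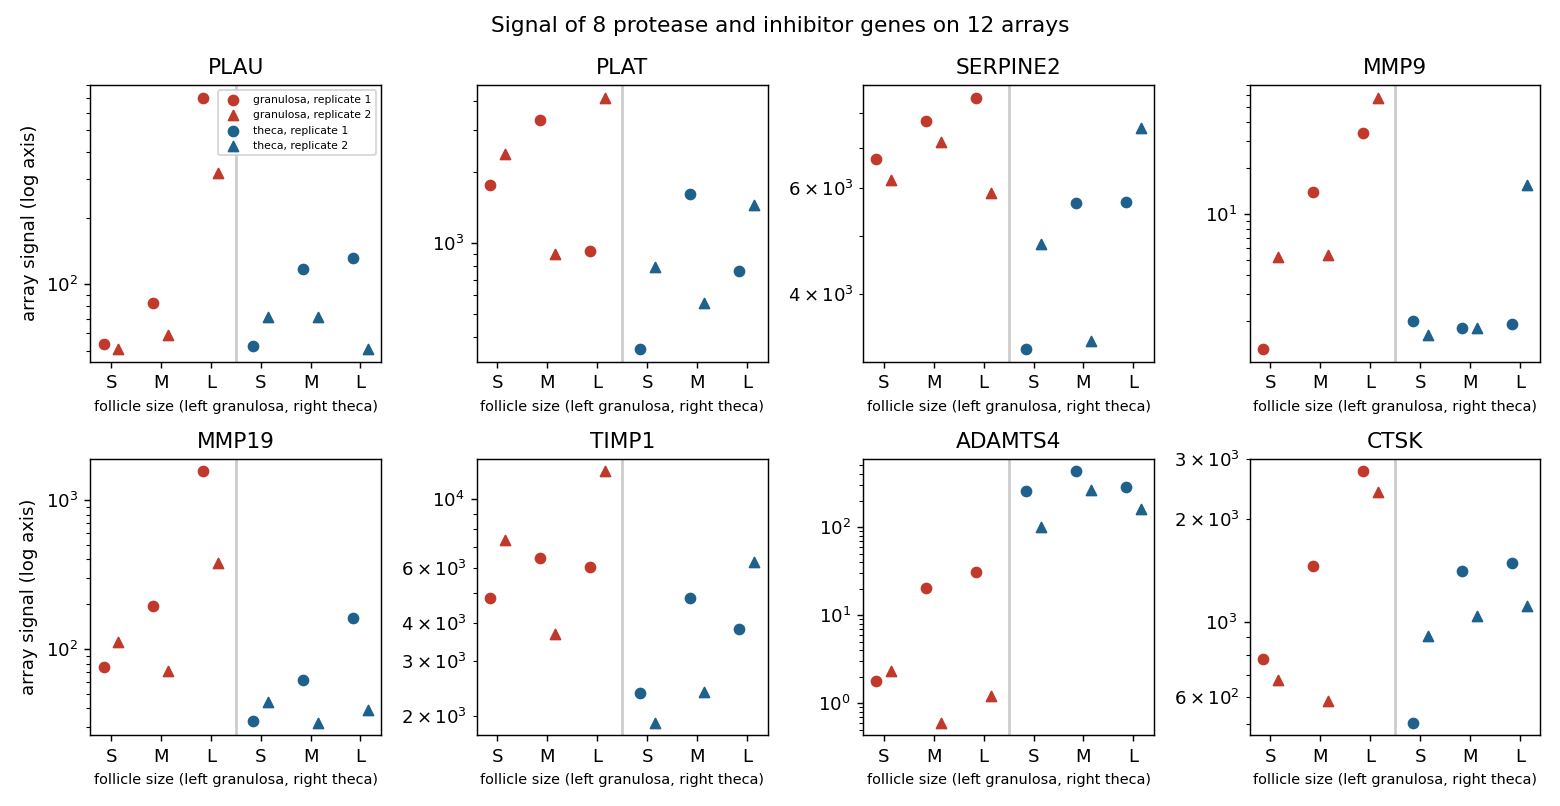
Array signal (log axis, a separate scale per panel) of the brightest probe set of each of the 8 genes, with granulosa in red on the left and theca in blue on the right of each panel, for small (S), medium (M) and large (L) follicles. Circles are replicate 1 and triangles replicate 2. The large granulosa arrays lie above all other arrays for PLAU (318.9 and 703.7), MMP19, MMP9 and CTSK, and ADAMTS4 lies higher on all 6 theca arrays than on any granulosa array.

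Over all sizes 5 of 8 genes were called between the layers, 4 higher and 1 lower in granulosa, where 24.8% of all tested probe sets were called (13.6% higher, 11.2% lower). In small follicles 1 of 8 was called, as lower, against 9.14% of all (4.06% higher, 5.08% lower). In medium follicles it was 1 of 8, as lower, against 6% of all (1.79% higher, 4.21% lower), and ADAMTS4 was that gene both times. ADAMTS4, also the gene called lower over all sizes and in large follicles, entered the test only through theca, where it is high. In large follicles 3 were higher and 1 lower, against 4.41% of all (2.02% higher, 2.39% lower). That count of 4 was 1 when granulosa large replicate 1, or replicate 2 of large theca, was left out, and 2 without theca large replicate 1. The count over all sizes was 2 or 3 without granulosa small replicate 2, medium replicate 1 or large replicate 2, or without theca medium replicate 2 or large replicate 1.

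From small to large granulosa 4 of 8 were called, all as rises, against 2.22% of all probe sets (1.82% higher, 0.4% lower). MMP9 is among these 4, the 3 higher in large follicles and the 4 higher over all sizes. It entered the test only through large granulosa, where it is high. The median change of the 8 was 1.16, beside 0.04 over all tested probe sets. The count was 0 without granulosa large replicate 1 or either small granulosa array, and 2 without granulosa large replicate 2. Over all probe sets the calls went from 382 to 0 without granulosa large replicate 1. From medium to large granulosa 1 of 8 was called, PLAU, against 0.679% of all (0.65% higher, 0.029% lower). From small to medium granulosa limma called 0 of the 8, and 0 had an unadjusted p under 0.05 (0.0058% of all probe sets were called, all of them lower).

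In theca 0 of 8 were called in any pair of sizes by limma. At an unadjusted p under 0.05 there was 1, TIMP1, in large minus small, and 0 in the other pairs. Among all probe sets 0.0348% were called in large minus small theca, 0.0116% in medium minus small and 0% in large minus medium. All 8 genes had a positive change from small to large theca, with a median of 0.80 beside -0.043 over all tested probe sets. Small theca holds the array with the GAPDH ratio of 8.36. Granulosa markers moved with this change only in part: 2 of 14 were called higher and 0 lower in large theca, at a median of 0.59. KRT18, AMH and HSD17B1 were lower on both large theca arrays than on both small ones. The summed signal of the list is given above. The part of granulosa markers, and that of the RNA state of the small theca array, was not tested. The layer difference in the large minus small change gave 0 calls among the 8 (0.0116% of all), with 3 at an unadjusted p under 0.05, namely PLAU, MMP9 and MMP19.

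PLAU encodes the urokinase-type plasminogen activator, which works mainly at the cell surface, bound to its receptor. Its signal in granulosa was 53.9 and 51.0 in small follicles, 82.2 and 58.9 in medium follicles, and 703.7 and 318.9 in large follicles (replicates 1 and 2). In theca it was 52.8 and 71.0 in small, 117.8 and 70.8 in medium, and 132.3 and 50.9 in large follicles. Both large granulosa arrays stood above the other 10. In the order of the group means, the step from large granulosa down to medium theca, 2.19 on the log2 scale, was the only one of 5 whose arrays did not overlap.

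PLAU rose from small to large granulosa by 2.84 ± 0.44 (7.17-fold, limma adjusted p = 0.00631) and from medium to large granulosa by 2.52 ± 0.44 (5.72-fold, adjusted p = 0.025). The step from small to medium gave 0.33 ± 0.44 and did not pass (adjusted p = 1). In large follicles PLAU was higher in granulosa than in theca by 2.30 ± 0.44 (4.93-fold, adjusted p = 0.0107). In small and medium follicles the layers differed by -0.18 and -0.33, below the standard error of 0.44. In theca the change from small to large was 0.36 ± 0.44 (adjusted p = 0.812). The difference between the layers in this change was 2.48 ± 0.63 and missed the threshold, with an adjusted p of 0.175.

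The PLAU calls rested on few arrays. Without granulosa large replicate 1 the rise from small to large was 2.29 with an adjusted p of 0.107, and without granulosa small replicate 1 or 2 the adjusted p was 0.0832 or 0.0585. The rise from medium to large was not called without granulosa large replicate 1 (1.97, adjusted p = 0.383), granulosa medium replicate 2 (0.323) or granulosa small replicate 1 (0.0506) or 2 (0.0504). The layer difference in large follicles was 1.75 (adjusted p = 0.101) when granulosa large replicate 1 was left out and 1.73 (0.136) when theca large replicate 2 was. Without granulosa large replicate 2 the difference between the layers in the change passed, at 3.03 (adjusted p = 0.0392).

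PLAT encodes the tissue-type plasminogen activator, the main activator in blood clot lysis. In granulosa its signal was 1760.5 and 2375.1 in small, 3312.0 and 898.0 in medium, and 928.9 and 4118.6 in large follicles. In theca it was 355.7 and 793.9 in small, 1613.4 and 555.4 in medium, and 759.0 and 1442.8 in large follicles. The replicates of a group lay far apart, by 2.13 on the log2 scale in large granulosa and by 1.86 in medium granulosa. The arrays of all 5 neighbouring groups in the order of means overlapped.

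As a mean over the sizes PLAT was higher in granulosa by 1.22 ± 0.42 (2.33-fold, adjusted p = 0.0483). This call sat at the threshold and was lost without any of 8 of the 12 arrays, with an adjusted p of up to 0.149 (without theca medium replicate 2). It was also lost with log2(signal + 1) (0.101), log2(signal + 64) (0.079), no filter (0.0822) and the replicate number as a block (0.0551). The call held after quantile normalization (0.0438) and with a trend in the prior variance (0.0423). With the replicate number as a block within each size, added after seeing the data, its limma adjusted p was 0.00277. The layers did not overlap in small follicles (1.91 ± 0.73, adjusted p = 0.116, and 0.0128 with the replicate number as a block within each size) but did in medium (0.85) and large ones (0.89). Between large and small follicles PLAT differed by -0.06 ± 0.73 in granulosa and by 0.95 ± 0.73 in theca, and neither passed.

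SERPINE2 encodes protease nexin-1, a serpin that inhibits both plasminogen activators, plasmin and thrombin. Its signal in granulosa was 6711.6 and 6196.2 in small, 7760.0 and 7172.1 in medium, and 8494.3 and 5896.3 in large follicles. In theca it was 3237.9 and 4839.1 in small, 5660.2 and 3343.8 in medium, and 5700.1 and 7545.0 in large follicles. All 12 arrays carried a strong signal, and the layers did not overlap in small and medium follicles but did in large ones.

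Over all sizes SERPINE2 was 0.53 ± 0.21 higher in granulosa and missed the threshold (adjusted p = 0.0774). It passed after quantile normalization (0.71, adjusted p = 0.025), with a trend in the prior variance (0.0346), with log2(signal + 64) (0.0472) and without theca small replicate 2 (0.0427). By size the layer difference was 0.70 (small), 0.78 (medium) and 0.11 (large), with a standard error of 0.36 each. Large minus small gave 0.73 ± 0.36 in theca, where the arrays did not overlap (adjusted p = 0.514), and 0.13 ± 0.36 in granulosa, where they did.

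TIMP1 encodes a secreted inhibitor of most matrix metalloproteinases. On its brightest probe set, granulosa gave 4799.0 and 7394.7 in small, 6488.6 and 3681.8 in medium, and 6028.3 and 12322.6 in large follicles. Theca gave 2365.0 and 1900.3 in small, 4822.8 and 2398.1 in medium, and 3808.7 and 6273.9 in large follicles. Small theca lay below every other group without overlap, and the remaining neighbours in the order of means overlapped.

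TIMP1 was higher in granulosa over all sizes by 0.94 ± 0.27 (1.92-fold, adjusted p = 0.0202), and by 0.78 ± 0.23 on its other probe set (adjusted p = 0.0237). The call was lost without any of 5 arrays, with adjusted p-values of 0.0573 to 0.0791. These were granulosa small replicate 2, medium replicate 1 and large replicate 2, and theca medium replicate 2 and large replicate 1. With log2(signal + 1) the adjusted p was 0.0509. In small follicles the difference was 1.48 ± 0.46 (adjusted p = 0.0597), which passed without granulosa large replicate 1 (0.0488), with a trend in the prior variance (0.0382) and with the replicate number as a block within each size (0.0349). In medium and large follicles it was 0.52 and 0.82 (standard error 0.46 each). Large minus small theca gave 1.20 ± 0.46 with no overlap between the arrays (unadjusted p = 0.0215 by limma, adjusted p = 0.404).

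MMP9 encodes gelatinase B, which degrades type IV collagen of basement membranes and is also made by neutrophils and macrophages. It was dim: 10 of its 12 signals lay under the filter's 22.5. Granulosa gave 1.3 and 5.2 in small, 14.0 and 5.4 in medium, and 33.9 and 58.0 in large follicles. Theca gave 2.0 and 1.6 in small, 1.8 and 1.8 in medium, and 1.9 and 15.4 in large follicles. MMP9 passed the filter through large granulosa, the group where it was highest.

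MMP9 rose from small to large granulosa by 1.67 ± 0.36 (adjusted p = 0.0264). It was higher in granulosa than in theca in large follicles by 1.36 ± 0.36 (adjusted p = 0.0468) and over all sizes by 0.66 ± 0.21 (adjusted p = 0.032), with 0.11 in small and 0.51 in medium follicles. With signals under 22.5 set to 22.5, large granulosa was at least 1.97-fold higher than small granulosa, and likewise at least 1.97-fold higher than large theca. Over all sizes, with theca signals floored in this way, granulosa was not higher, so no such bound is given. That floor is the filter's value, not a measured detection limit. Neutrophil and monocyte markers moved with these layer differences. Over all sizes 5 of 5 were higher in granulosa (median 1.71), and in large follicles 4 of 5 (median 3.51). These 5 include the proteoglycan gene VCAN, and the markers' part was not tested. Without any array of small or large granulosa the rise was not called, with adjusted p-values of 0.0909 to 0.224. The layer difference in large follicles was not called under 17 of the 20 alternatives. These included 10 of the 12 arrays left out in turn. They also included the replicate number as a block (adjusted p = 0.0506) or as a block within each size (0.065). The change scaled with the added constant: the rise was 3.59 with log2(signal + 1) and 0.70 with log2(signal + 64), and neither passed (adjusted p = 0.0624 and 0.0984). After quantile normalization it was 1.48 (0.0697). The difference over all sizes ran from 0.52 to 0.79 with an array left out, and was not called without any of 6 arrays. Nor was it called with log2(signal + 64), at a change of 0.26, or after quantile normalization, at a change of 0.59. The layer difference in the large minus small change was 1.25 ± 0.50 (adjusted p = 0.396).

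MMP19 encodes a matrix metalloproteinase that cuts basement membrane proteins. Its brightest probe set gave 76.0 and 111.3 in small, 195.5 and 71.1 in medium, and 1563.9 and 377.6 in large granulosa. Theca gave 32.9 and 44.3 in small, 62.2 and 32.0 in medium, and 161.3 and 39.3 in large follicles. At every size both granulosa arrays exceeded both theca arrays. The other probe set was dim, with 11 of 12 signals under 22.5, and was not tested.

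As a mean over the sizes MMP19 was higher in granulosa by 1.71 ± 0.37 (3.28-fold, adjusted p = 0.00455), and this call held under all 20 alternatives run. It rose from small to large granulosa by 2.87 ± 0.64 (7.29-fold, adjusted p = 0.0343). In large follicles it was higher in granulosa by 2.99 ± 0.64 (7.96-fold, adjusted p = 0.0194), against 0.99 in small and 1.15 in medium follicles, which did not pass. Without granulosa large replicate 1 the rise was 1.86 (adjusted p = 0.305) and the layer difference in large follicles 1.99 (0.165). The rise was also lost without granulosa small replicate 1 (0.249) or 2 (0.133), with either other added constant (0.119 for 1, 0.0728 for 64) and without the filter (0.0695). The layer difference in large follicles was lost without theca large replicate 2 (0.204) and with log2(signal + 1) (0.078). Large minus medium granulosa gave 2.54 ± 0.64 and missed the threshold (0.0913). It passed with the replicate number as a block (0.0381) and without granulosa large replicate 2 (3.54, adjusted p = 0.0149). The layers' changes from small to large differed by 2.00 ± 0.91 (adjusted p = 0.461).

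ADAMTS4 encodes aggrecanase-1, a secreted protease that cuts the proteoglycans aggrecan and versican. In granulosa its signal was 1.8 and 2.3 in small, 20.1 and 0.6 in medium, and 31.3 and 1.2 in large follicles, under the filter's 22.5 on 5 of 6 arrays. In theca it was 254.7 and 100.8 in small, 429.5 and 260.6 in medium, and 286.7 and 160.0 in large follicles. The lowest theca array thus exceeded the highest granulosa array. ADAMTS4 passed the filter only through theca, the layer where it was high.

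ADAMTS4 was lower in granulosa by -3.39 ± 0.31 over all sizes (adjusted p = 4.39e-06). With granulosa signals under 22.5 set to 22.5, theca was at least 9.49-fold higher over all sizes, and at least 7.12-fold in small, 14.9-fold in medium and 8.07-fold in large follicles. The difference was -3.30 in small (adjusted p = 0.00221), -3.84 in medium (0.000621) and -3.02 (0.00682) in large follicles, each ± 0.54. The call in large follicles was lost without theca large replicate 1 (-2.63, adjusted p = 0.0856) and with log2(signal + 1) (-4.67, adjusted p = 0.0983), and the other 3 held under all 20 alternatives. Its size changes did not pass. They ran from 0.22 to 0.66 in granulosa, where all pairs of sizes overlapped, and from -0.60 to 0.98 in theca.

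Markers of the theca wall moved with ADAMTS4 over all sizes, but the endothelial ones did not in large follicles. Of the 6 theca markers tested all 6 were lower in granulosa over all sizes. The 7 theca markers with a probe set had a summed signal of 759 to 1711 in granulosa and 17920 to 28380 in theca. Fibroblast and stroma markers were lower for 9 of 11 and higher for 1 (2084 to 9538 in granulosa, 24358 to 32588 in theca). Pericyte and smooth muscle markers were lower for 6 of 10 (2131 to 6441, against 10901 to 21666). Endothelial markers were lower for 8 of 10 tested (sums of 11 genes 166 to 767, against 581 to 2168). In large follicles 0 of the 10 endothelial markers were called, at a median of -0.3 (391 to 767, against 581 to 1085). The theca, fibroblast and pericyte lists had 5 of 6, 7 of 11 and 4 of 10 called lower there. The endothelial surface protein PECAM1 gave 15.8 to 100.5 in granulosa and 65.2 to 257.8 in theca. Which of these cells carried the ADAMTS4 transcript was not tested.

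CTSK encodes cathepsin K, a collagen-cutting cysteine protease best known from osteoclasts and also made by macrophages and fibroblasts. Granulosa gave 779.3 and 673.5 in small, 1459.9 and 584.5 in medium, and 2763.6 and 2399.8 in large follicles. Theca gave 504.9 and 908.9 in small, 1404.1 and 1040.9 in medium, and 1484.1 and 1112.0 in large follicles. Both large granulosa arrays stood above the other 10, and the rest of the order of means overlapped from neighbour to neighbour.

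CTSK rose from small to large granulosa by 1.81 ± 0.43 (3.5-fold, adjusted p = 0.0417). Its replicates in large granulosa were close, and without granulosa large replicate 1 the change stayed at 1.71. The call was lost without any array of small or large granulosa or of medium or large theca, with adjusted p-values of 0.0571 to 0.239. It was lost too with log2(signal + 1) (0.112), log2(signal + 64) (0.0625), no filter (0.0672) and quantile normalization (0.0626). In large follicles the layers did not overlap, but the difference of 0.99 ± 0.43 missed the threshold (adjusted p = 0.201). In theca the change from small to large was 0.91 ± 0.43 without overlap of the arrays (adjusted p = 0.491).

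**Figure D2:**
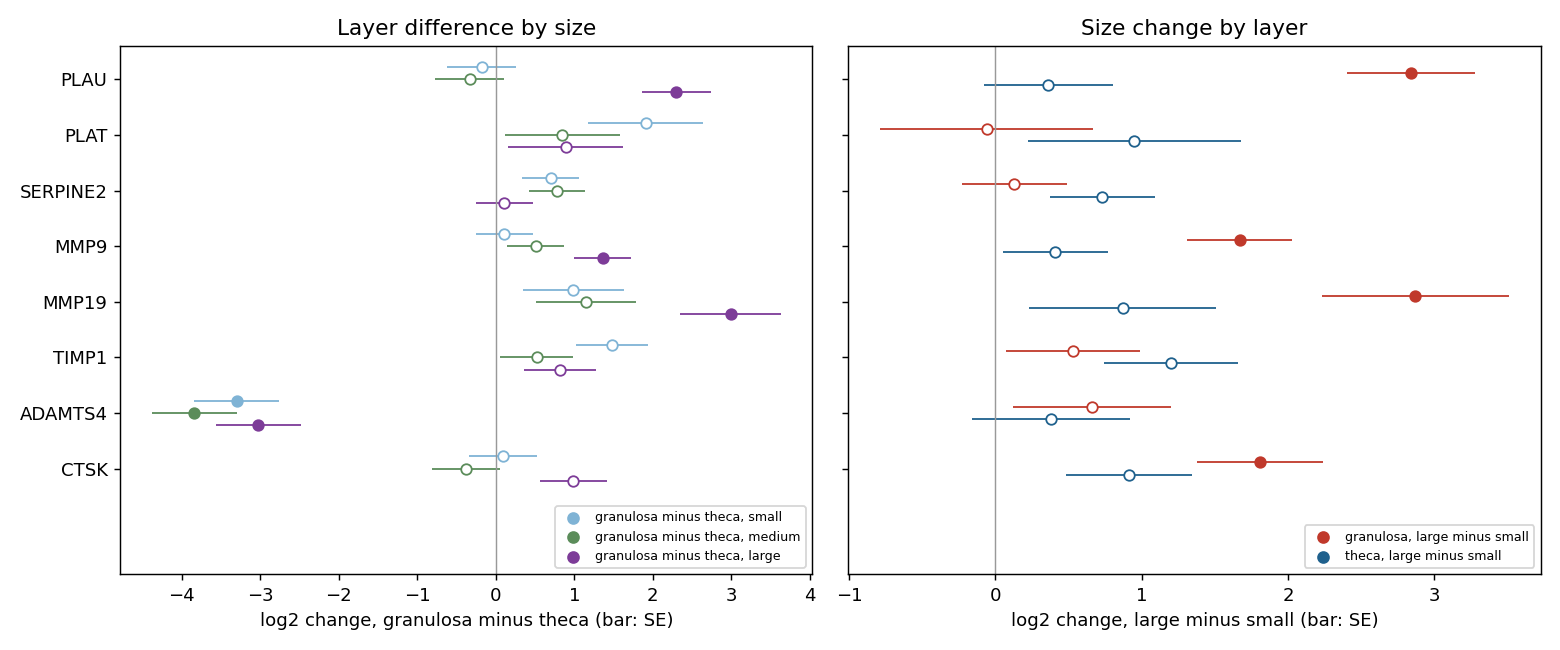
Log2 change (horizontal axis) of the 8 genes, with the layer difference at each size on the left and the large minus small change in each layer on the right. Bars are standard errors of the limma model and filled points are called at an adjusted p under 0.05. PLAU, MMP9 and MMP19 differ between the layers in large follicles (2.30, 1.36 and 2.99), ADAMTS4 at all sizes, and the 4 filled points on the right are all in granulosa.

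Leukocyte markers moved with the rise of PLAU, MMP19, MMP9 and CTSK in large granulosa. All 10 general leukocyte markers were called higher in large than in small granulosa, at a median of 3.23. Their summed signal was 485 to 571 in small, 499 to 1191 in medium and 3692 to 9702 in large granulosa, and 1260 to 2468 over the theca arrays. Of 11 macrophage markers 10 rose (436 to 470 in small and 3875 to 14259 in large granulosa), and of 5 neutrophil and monocyte markers 4 rose (814 to 974, and 3248 to 3418). The proteoglycan gene VCAN, 1 of these 5, gave 817.7 and 683.7 in small and 815.6 and 699.8 in large granulosa. It thus made up most of the small granulosa sums. The pan-leukocyte phosphatase PTPRC gave 25.6 and 3.8 in small and 597.4 and 141.9 in large granulosa. The macrophage protein CD68 gave 84.1 and 99.5 in small and 3037.8 and 610.5 in large granulosa, and neither gene was at 0 on any array. PTPRC and CD68 were higher on each large granulosa array than on either small one. The fit without granulosa large replicate 1 called no probe set in this contrast, so it could not call these rises. The part of leukocytes in the 4 rises was not tested.

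**Figure D3:**
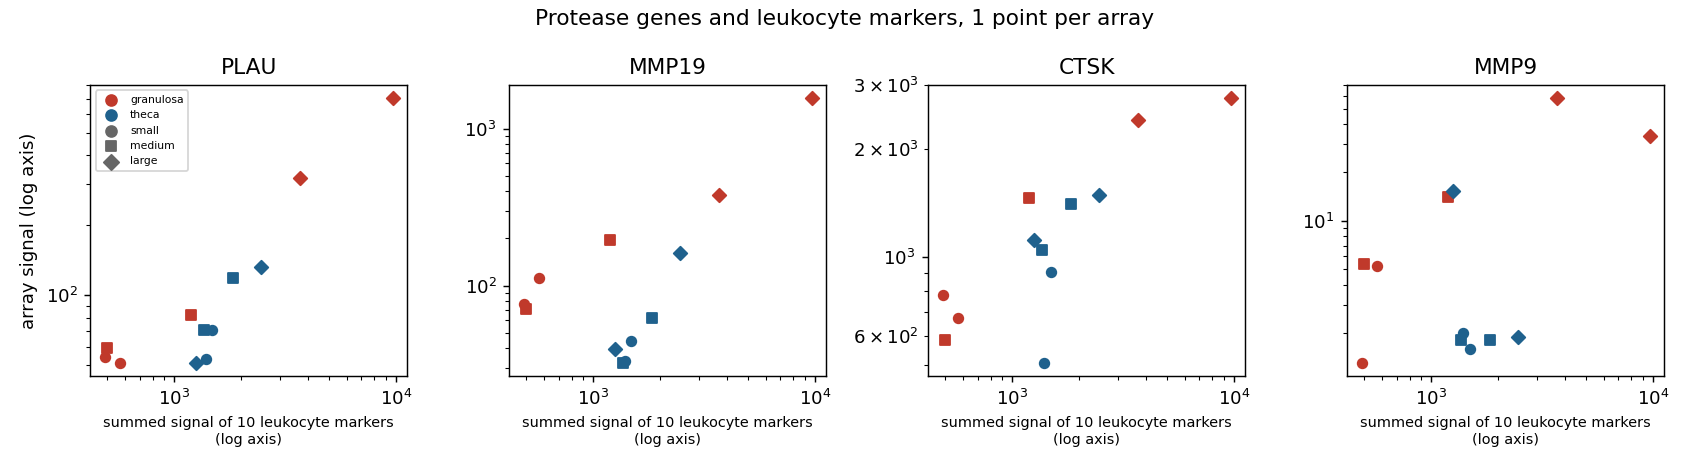
Signal of PLAU, MMP19, CTSK and MMP9 (vertical log axis) against the summed signal of 10 leukocyte markers (horizontal log axis), 1 point per array, coloured by layer and shaped by size. Large granulosa replicate 1 has the highest marker sum (9702) and the highest PLAU (703.7), MMP19 (1563.9) and CTSK (2763.6), whereas MMP9 is highest on large granulosa replicate 2 (58.0).

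The genes whose signals followed the members most closely over the 12 arrays were sought among 7885 other genes with a tested brightest probe set, with Pearson's r on the log2 scale as a description. Arrays share layer and size, so each r holds those differences. ITGB2 and S100A9 also stand in the leukocyte and neutrophil marker lists. For PLAU these were the cytokine receptor chain IL2RG (0.981), the phagocyte oxidase subunit NCF1 (0.976) and the leukocyte integrin ITGB2 (0.974). For MMP9 they were the calgranulin S100A9 (0.968), the myeloid receptor TREM1 (0.945) and complement factor CFB (0.932). For MMP19 they were MS4A7 (0.967), the lysosomal lipase LIPA (0.966) and NPL (0.965), and for CTSK the chemokine CCL2 (0.953), LYST (0.903) and LCP2 (0.902).

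The remaining members had other neighbours. PLAT was followed by SFRP2, a secreted modulator of WNT signalling (0.964), GNG2 (0.960) and the urokinase receptor PLAUR (0.950), and PLAT and PLAUR correlated within the 6 granulosa arrays (0.918) and the 6 theca arrays (0.940) too. TIMP1 was followed by CMTM3 (0.942), PAX8 (0.942) and TSPO (0.941). SERPINE2 was nearest to IGSF11 (0.939), EFNA5 (0.932) and BCAR3 (0.923), at 0.672, 0.649 and 0.672 within granulosa. ADAMTS4 was nearest to the elastic fibre gene FBLN5 (0.979), MYOC (0.975) and CPE (0.971).

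Replicates of a group differed most for PLAT, with a median absolute difference of 1.32 on the log2 scale over the 6 groups, while CTSK (0.42) and SERPINE2 (0.46) were near the level of all probe sets. The added 16 holds down that difference for MMP9 and ADAMTS4, which were dim on many arrays. Over all probe sets that level was 0.25 to 0.45 by group. In large granulosa PLAU and MMP19 were lower on replicate 2, by -1.10 and -2.01, while PLAT, TIMP1 and MMP9 were higher there, by 2.13, 1.03 and 0.57. The same split was seen in large theca, with -1.15 for PLAU, -1.68 for MMP19, 0.91 for PLAT, 0.72 for TIMP1 and 0.81 for MMP9. PLAU and CTSK differed in the same direction between the replicates in 6 of 6 groups, PLAT and TIMP1 in 5 of 6, and PLAU and MMP9 in 1 of 6. With 6 groups these counts are a description.

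**Figure D4:**
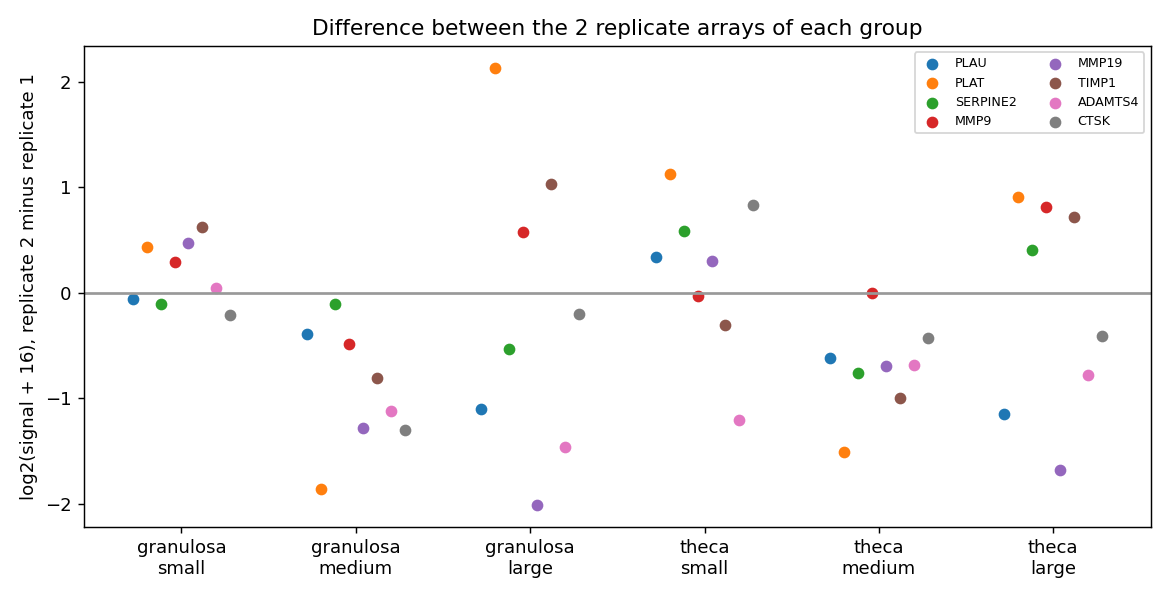
Difference between replicate 2 and replicate 1 in log2(signal + 16) (vertical axis) for each of the 8 genes in each of the 6 groups. In large granulosa PLAT differs by 2.13 and MMP19 by -2.01, and in medium granulosa all 8 genes are below 0.

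The wider protease system was read from lists of related genes. Of 28 further genes of the plasminogen system 21 had a probe set and 17 were tested. Between the layers over all sizes 3 were higher in granulosa and 5 lower, where 13.6% of all probe sets were higher and 11.2% lower. A2M, a broad protease inhibitor of plasma, was lower in granulosa by -3.55 ± 0.26 (adjusted p = 5.65e-07) and TFPI2, an inhibitor of plasmin and other serine proteases, by -2.85 ± 0.24 (1.88e-06). The urokinase receptor PLAUR was higher in granulosa by 2.07 ± 0.53 (adjusted p = 0.0116). It gave 310.9 and 449.2 in small, 818.7 and 226.6 in medium, and 269.6 and 1746.1 in large granulosa, and 38.6 to 339.5 in theca, so that the layers overlapped. From small to large granulosa 0 of the 17 rose and 1 fell (1.82% and 0.4% of all), SERPING1, the inhibitor of complement C1 and plasma kallikrein (-1.91 ± 0.41, adjusted p = 0.0272).

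Of 24 other metalloproteinases, their inhibitors and regulators, 12 had a probe set and 8 were tested. Over all sizes 0 were higher and 2 lower in granulosa, a share called close to the 24.8% of all probe sets. These were the gelatinase MMP2 (-2.55 ± 0.36, adjusted p = 0.000195) and the inhibitor TIMP2 (-0.95 ± 0.20, adjusted p = 0.00396). Between large and small granulosa limma called 0 of the 8, at a median of 0.061, where 2.22% of all probe sets were called.

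Among 31 ADAMTS and ADAM proteases and their substrates 15 had a probe set and 9 were tested, of which 2 were higher and 2 lower in granulosa over all sizes (24.8% of all probe sets called). ADAMDEC1 was lower by -4.86 ± 0.22 (adjusted p = 1.47e-08). ADAMTS1, another versican-cutting protease, was lower by -1.64 ± 0.22 (0.000134), and the proteoglycan versican, VCAN, was higher in granulosa by 1.64 ± 0.41 (0.0107). VCAN also stands in the neutrophil and monocyte marker list. ADAMTS1 gave 124.1 to 286.0 on the granulosa arrays and 402.9 to 939.4 on the theca arrays, without overlap. Between large and small granulosa 0 of the 9 were called, where 2.22% of all probe sets were called.

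All 15 cathepsins and cystatins with a probe set, of 23 listed, were tested. Between the layers over all sizes 2 were higher and 4 lower in granulosa (24.8% of all probe sets called), led by the cystatin CST6 (-1.94 ± 0.20, adjusted p = 1.49e-05) and the cathepsin CTSF (-1.42 ± 0.21, 0.000255). From small to large granulosa 4 rose and 0 fell, at a median of 1.13, beside 1.82% of all probe sets higher, 0.4% lower and a median of 0.04. CTSS, a protease of antigen-presenting cells, rose by 3.92 ± 0.68 (adjusted p = 0.0096) and CTSH by 2.78 ± 0.44 (0.00737). The leukocyte markers given above moved with these rises too, and their part was not tested. The fit without granulosa large replicate 1 called no probe set in this contrast, so it could not call the cathepsin rises.

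Genes of the ovulatory response to LH were listed because several members are known to respond to the LH surge in the periovulatory follicle. Of 14 genes 11 had a probe set and 10 were tested. From small to large, TNFAIP6, which links hyaluronan chains in the ovulatory matrix, was called higher in granulosa (2.95 ± 0.60, adjusted p = 0.0192) and in theca (4.53 ± 0.60, adjusted p = 0.00907). The theca contrast held 6 calls over all probe sets, which became 0 without theca large replicate 2, and the granulosa contrast held 0 without granulosa large replicate 1. The other 9 were not called in either layer, where 2.22% of all probe sets were called in granulosa and 0.0348% in theca.

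**Figure D5:**
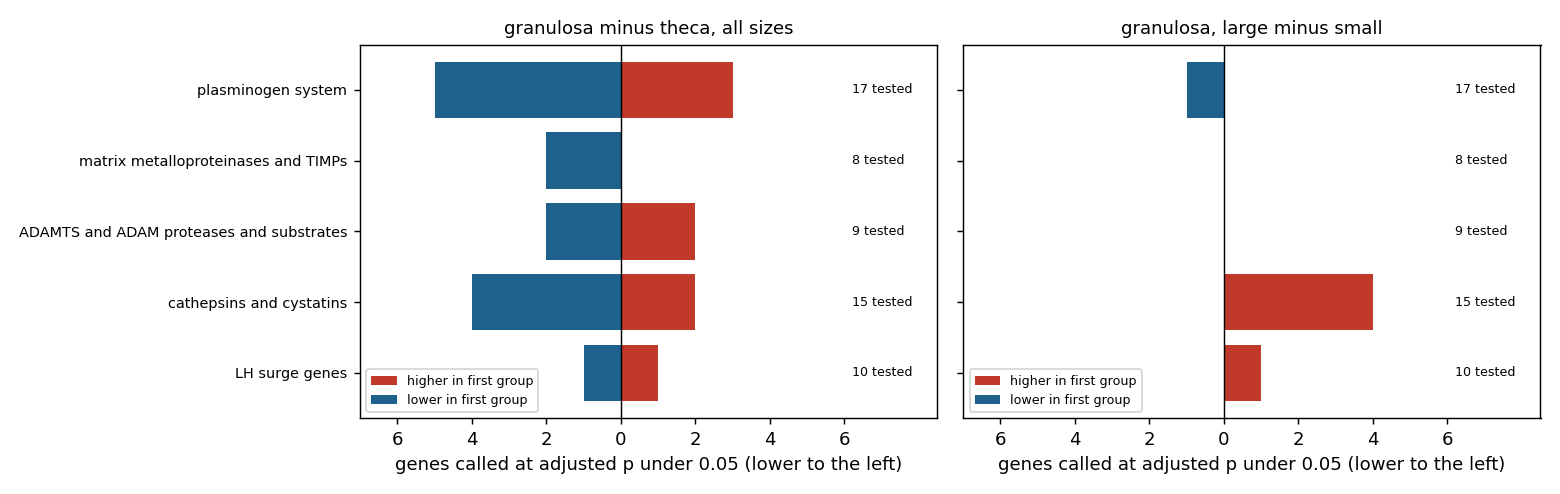
Number of genes called at an adjusted p under 0.05 (horizontal axis, lower in the first group to the left and higher to the right) in 5 lists of related genes that hold none of the 8 members. Between granulosa and theca both directions occur, with 3 higher and 5 lower among 17 genes of the plasminogen system, and from small to large granulosa the cathepsins and cystatins hold 4 rises of 15.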

How the data were processed

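Deposited values were array signal intensities, linear in scale, for 24128 probe sets on each of 12 arrays. The 2% trimmed mean was 125.03 to 125.04 on every array, so the authors deposited scaled intensities. The software that made them is not given in the sources used here. With 2 arrays in a group, their number limits the precision. Groups came from the sample titles, and 0 columns stayed without a sample. Gene symbols came from the platform annotation. The Entrez identifiers of all 8 members carried the same symbol in the RefSeq gene table of assembly ARS-UCD2.0.

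After 112 control probe sets were left out, log2(signal + 16) was fitted with limma 3.58.1 (R 4.3.3), using a mean for each group (6 residual and 7.92 prior degrees of freedom, no trend). Probe sets entered the test if a group mean on the log2 scale exceeded the 40th percentile of all signals, 22.5. The 11 contrasts were adjusted separately by Benjamini-Hochberg. The correlation of replicate deviations between groups neither established nor excluded a pairing of the arrays by replicate number, and the main fit used none. Figures were drawn with matplotlib 3.10.9 in Python 3.11.15.

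The members, the lists and the tests were chosen with earlier results of these data known. Named were the members, up to 2 called genes of the largest change for a list and contrast, the 3 genes nearest in pattern to each member, and defining markers. PLAUR in its list, VCAN, HBB, CYP19A1, INHBA, INHA, KRT18, AMH, HSD17B1, CDH2 and CRABP2 were chosen for naming once values were known.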

Additional observations from a re-analysis of the deposited data

How the results depend on the processing

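The alternatives were log2(signal + 1), log2(signal + 64), no filter, quantile normalization, a trend in the prior variance, the replicate number as a block, each array left out in turn, both arrays that stood apart left out and, chosen after seeing the data, a replicate block within each size for contrasts between layers. No called change of a member turned its sign, and changes whose sign turned were uncalled under both settings. The number of members called between the layers over all sizes, 5, was 3 with log2(signal + 1) and 2 to 6 with an array left out. In small follicles the count of 1 was 2 with a trend, 3 with the replicate block within each size (PLAT and TIMP1 added) and 1 to 2 with an array left out. In large follicles the 4 became 1 with log2(signal + 1), 1 without both arrays and 1 to 4 with an array left out. From small to large granulosa the 4 became 1 with log2(signal + 1), 1 with log2(signal + 64), 2 without a filter, 2 after quantile normalization, 0 without both arrays and 0 to 4 with an array left out. From medium to large granulosa the 1, PLAU, became 0 with log2(signal + 1), log2(signal + 64), no filter or without both arrays, 2 with the replicate block and 0 to 2 with an array left out. The layer difference in the large minus small change gave 0 to 1 members with an array left out. The counts of the other 5 contrasts did not change. The cause of these shifts was not tested.

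Over all probe sets the 382 calls from small to large granulosa became 0 to 725 with an array left out, 57 without both arrays, 227 with log2(signal + 1) and 158 with log2(signal + 64). The 760 calls between the layers in large follicles became 200 to 1007 with an array left out and 367 with log2(signal + 1), and the 506 without both arrays were fewer by over 1.5 times. From medium to large granulosa 117 calls became 0 to 564 with an array left out, 0 without both arrays, 5 with log2(signal + 1), 26 with log2(signal + 64) and 38 without a filter. Replicate deviations correlated between groups at -0.335 to 0.402 (15 pairs of groups). Between granulosa and theca of 1 size the same numbers correlated at -0.307 (small), -0.179 (medium) and 0.142 (large), which does not establish a pairing. Of the 8 members, 2 (small), 7 (medium) and 7 (large) deviated in the same direction in both layers, so a pairing is not excluded either. With the replicate block the calls were 425 from small to large granulosa and 213 from medium to large, and the block ended the calls of PLAT over all sizes (adjusted p = 0.0551) and of MMP9 in large follicles (0.0506). The other probe set of MMP19 was under the filter, and its fit was not run.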
